A study of Homo sapiens with 16 samples.

Results

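Sense intronic RNAs are annotated transcripts that lie within an intron of another gene and on the same strand. In the deposited gene table they are the 894 rows with that biotype, of 58735 rows in all, and 423 of them had a mean raw count of at least 5 over the 16 libraries. These 423 are described here. They were thus chosen by their mean count over all libraries, and their overall level is a description and not a result. The nearest RNAs inside this limit were AC005391.1 and ARHGAP22-IT1, with a mean of 5.0 counts, and the nearest outside were AC092120.1 and HECW1-IT1, with 4.9375. Of the 471 rows left out, 118 had no count in any library.

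IMR32, an established line from a human neuroblastoma, was treated for 24 h. Groups received the solvent DMSO, indisulam at 1.25 µM, alectinib at 4 µM, or the 2 drugs together at the same doses (the combination). Each of the 4 groups had 4 libraries of polyadenylated RNA. Indisulam is an aryl sulfonamide that recruits the splicing factor RBM39 to a ubiquitin ligase, which leads to loss of the RBM39 protein, and alectinib is an inhibitor of the kinase ALK. The study's title sets out a question about splicing when the drugs are combined. All groups shared 1 cell line, and nothing in the labels says that the libraries of a group were separate cultures, so the p-values measure the spread between these libraries only.

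Most introns are removed from the pre-mRNA while it is being made and are degraded in the nucleus soon after. A stable RNA inside an intron can arise in several known ways, such as from a promoter of its own, from a transcript that is cut and polyadenylated within the intron, or from an intron that is kept. The U1 snRNP, which pairs with the start of the intron, is also known to hold back cleavage at poly(A) signals inside introns, and the nuclear exosome with its adaptors degrades many RNAs that end there. The counts used here cannot tell these forms apart, and a read from an unspliced host transcript that falls on the annotated intronic RNA would be counted for it as well. Whether strand was used in counting is not given in the sources used here.

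The 423 RNAs were mostly unspliced, and about as short as lincRNAs and antisense RNAs. The median length of the longest transcript was 635 bases (range 183 to 8444), against 704 for lincRNAs and 648 for antisense RNAs. Their median GC content was 43.2%. A single exon made up 235 of them (55.6%), against 31.2% of the 471 sense intronic rows left out. In the same annotation this held for 16.8% of lincRNAs, 99.4% of TEC genes and 39.8% of all genes with a transcript sequence. The span of 396 lay within that of a protein-coding gene on the same strand, and these had 352 different hosts. An intron of the host held 378 of the 396 whole, and the other 18 overlapped a host exon. Of the 378, 59 (15.6%) lay in the host's first intron. Exons of 33 of the 423 (7.80%) overlapped an exon of another gene on either strand, and their counts are uncertain for that reason.

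The ends of 7 RNAs that carry the results below are printed here, with GABPB1-IT1, the most abundant, for comparison, because a poly(A) signal near the end is what a transcript that ends inside an intron would hold. Each line gives the last 100 bases of a single-exon transcript, 5′ to 3′ on its own strand, from the GENCODE 29 transcripts (GRCh38). Capitals mark the poly(A) signal AATAAA and its variant ATTAAA, which were searched on the transcript strand only and can overlap each other.
GABPB1-IT1, chr15:50348936-50349035, minus strand: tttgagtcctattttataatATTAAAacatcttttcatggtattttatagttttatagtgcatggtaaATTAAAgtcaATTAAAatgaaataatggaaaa
AC073569.3, chr12:79818784-79818883, minus strand: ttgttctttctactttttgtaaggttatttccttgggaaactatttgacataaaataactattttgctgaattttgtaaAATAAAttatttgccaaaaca
AC009032.1, chr16:69632472-69632571, plus strand: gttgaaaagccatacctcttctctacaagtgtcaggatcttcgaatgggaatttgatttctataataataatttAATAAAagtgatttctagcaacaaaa
AC131009.3, chr12:131934829-131934928, plus strand: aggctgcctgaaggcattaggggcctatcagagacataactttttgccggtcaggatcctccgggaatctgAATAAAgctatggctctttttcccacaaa
Z98884.2, chr1:7776676-7776775, plus strand: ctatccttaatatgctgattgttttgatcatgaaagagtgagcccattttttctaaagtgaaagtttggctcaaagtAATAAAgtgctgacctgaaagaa
AC083799.1, chr3:129847048-129847147, minus strand: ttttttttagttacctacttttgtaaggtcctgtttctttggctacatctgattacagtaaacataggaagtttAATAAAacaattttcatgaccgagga
AC005726.3, chr17:28601827-28601926, minus strand: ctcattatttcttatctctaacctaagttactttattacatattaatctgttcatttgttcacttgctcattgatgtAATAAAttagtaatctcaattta
AC019080.5, chr2:177317715-177317814, minus strand: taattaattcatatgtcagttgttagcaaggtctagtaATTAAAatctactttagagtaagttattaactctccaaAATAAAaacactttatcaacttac

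The first base of AATAAA stood 21 bases from the end in AC073569.3, 29 in AC131009.3, 26 in AC009032.1 and 23 in Z98884.2, all of which were higher with indisulam. It stood 26 bases from the end in AC083799.1, 23 in AC005726.3 and 24 in AC019080.5, which were lower. No rule is given for the choice of these RNAs, and all of them held AATAAA near the end. They therefore cannot show whether RNAs that rose and RNAs that fell differed in how often they carried the signal. Counts over all tested RNAs with and without it are given further below. Over all 423 RNAs, 160 (37.8%) held AATAAA in their last 50 bases, against 38.9% of lincRNAs, 58.8% of protein-coding genes and 31.2% of all genes with a transcript sequence. An uninterrupted run of 10 A, to which an oligo(dT) primer or bead can bind, was present in 59 (13.9%), against 10.5% of all genes.

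Other members with large changes had 2 exons. For AC068580.1 (gene span chr11:1763009-1763749, minus strand, in CTSD), the 44 bases on either side of its splice junction are shown, with the 6 bases around the junction in capitals.
AC068580.1: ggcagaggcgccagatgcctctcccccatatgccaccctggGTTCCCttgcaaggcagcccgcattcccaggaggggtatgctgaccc

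Alectinib replicate 1 was the deepest library, with 90.2 M counts (M, 1000000), and the other 15 had 55.1 to 63.7 M. The neuroblastoma genes MYCN, GATA3 and HAND2 were high in all 16 libraries, with GATA3 for example at 247.9 to 334.6 counts per 1000000 counts. The mRNA of RBM39 itself was higher in all drug groups, with log2 fold changes of 0.97 ± 0.06 (SE) after indisulam, 0.42 ± 0.06 after alectinib and 1.44 ± 0.06 after both, and mRNA does not report the protein.

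The sense intronic RNAs took a small share of all counts, and the share was higher in every drug library than in any DMSO library. It was 0.0565, 0.0490, 0.0510 and 0.0488% in DMSO replicates 1 to 4. It was 0.0657, 0.0595, 0.0718 and 0.0650% in the indisulam replicates and 0.0676, 0.0586, 0.0632 and 0.0642% in the alectinib replicates. The combination replicates had 0.0834, 0.0606, 0.0725 and 0.0664%, with replicate 1 the highest of all 16 libraries. The 3 drug groups overlapped one another. Without GABPB1-IT1, which alone held 9.51% of these counts, the group means were 0.0477% (DMSO), 0.0608% (indisulam), 0.0566% (alectinib) and 0.0619% (both drugs). The groups then overlapped, since DMSO replicate 1 (0.0527%) lay above alectinib replicate 2 (0.0518%) and level with combination replicate 2 (0.0527%). Mitochondrially encoded genes also took a larger share in indisulam (6.48% ± 0.167, SD, n = 4) and the combination (6.61% ± 0.135) than in DMSO (5.38% ± 0.258), with alectinib at 5.63% ± 0.741, and their part in the result was not tested. Genes of the biotype TEC separated as the sense intronic RNAs did, with 0.0723 to 0.0834% in DMSO and 0.0859 to 0.126% in the drug libraries. The shares of antisense RNAs and lincRNAs did not separate in this way. In bulk RNA a change in these shares cannot be split into a change in the number of cells and in RNA per cell.

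**Figure D1:**
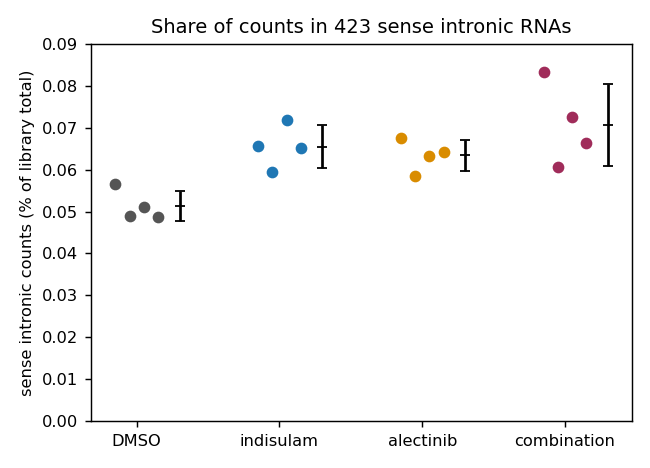
Share of each library's counts (%, y axis from 0) that fell on the 423 sense intronic RNAs, by treatment (x axis). Points are libraries in order of replicate number, and the bar to their right is the mean ± SD (n = 4); the 4 DMSO libraries lie at 0.0488 to 0.0565%, below all 12 drug libraries, a separation that did not hold without GABPB1-IT1, where DMSO replicate 1 (0.0527%) lay above alectinib replicate 2 (0.0518%).

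The spread of levels within the class was wide. The median RNA had a mean of 0.385 counts per 1000000 (CPM, scaled by TMM, a method that corrects for library composition), and the highest had 59.5. The 5 most abundant held 21.5% of the class's counts and the top 50 held 66.0%. Per kilobase of transcript the median was 0.615 CPM. In each group most members were detected, on average 409.0 of 423 in the combination, 413.25 in DMSO, 413.5 in indisulam and 417.25 in alectinib. Counts were therefore low for most members, which sets how small a change could be called.

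GABPB1-IT1, the most abundant, lies in an intron of GABPB1, which encodes a subunit of the GA-binding protein transcription factor (chr15:50348936-50354861, minus strand). Its CPM was 37.2, 35.8, 34.5 and 38.2 in DMSO, 51.0, 49.1, 45.7 and 47.3 in indisulam, 66.0, 66.1, 69.2 and 57.8 in alectinib, and 94.9, 81.4, 94.2 and 83.0 in the combination. The 4 groups did not overlap and stood in that order. The log2 fold change against DMSO was 0.41 ± 0.07 in indisulam (edgeR adjusted p = 4.89e-05), 0.83 ± 0.07 in alectinib (4.43e-08) and 1.28 ± 0.07 in the combination (3.36e-13). The interaction, which is the combination's log2 change minus the sum of the single drugs' changes, was 0.04 ± 0.10 (adjusted p = 0.843). The host mRNA changed by 0.03 ± 0.09 with either single drug, which was not called, and rose by 0.51 ± 0.09 with both (adjusted p = 2.65e-05).

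Of the other 4 among the 5 most abundant, AC015871.3 was also called higher with each treatment, and 3 fell in the combination. AC022150.4, within an intron of the zinc-finger gene ZNF83, was at 22.2, 19.2, 24.3 and 22.0 CPM in DMSO and fell to 13.0, 12.7, 14.9 and 13.0 in indisulam and to 9.16, 10.5, 9.79 and 8.69 in the combination. With alectinib alone it was at 25.1, 20.7, 21.8 and 27.3, which overlapped DMSO. AC015871.3 in ST20 rose from a mean of 14.5 CPM ± 0.757 (SD, n = 4) in DMSO to 17.1 ± 0.729, 18.3 ± 1.99 and 22.2 ± 3.12 in indisulam, alectinib and the combination. Its log2 fold changes were 0.24 ± 0.10 (adjusted p = 0.0453), 0.34 ± 0.10 (0.0115) and 0.62 ± 0.10 (6.38e-06), and its interaction of 0.03 ± 0.14 was not called (adjusted p = 0.912). The indisulam call was lost without any 1 of DMSO replicates 1, 2 and 4, indisulam replicates 1, 3 and 4 and alectinib replicates 3 and 4 (adjusted p of 0.0508 to 0.121), and without the low-count filter (0.0612). The alectinib call was lost without alectinib replicate 1 (0.0520). AC106820.4 in TBC1D24 was not called with indisulam (log2 fold change -0.16 ± 0.10, adjusted p = 0.205) and fell in the combination (-0.72 ± 0.10, adjusted p = 1.71e-06), where its host fell too (-0.60 ± 0.09, adjusted p = 2.64e-06). MIR600HG, the host transcript of a microRNA, has no protein-coding host on its strand, and its exons overlap those of another gene. It was at a mean of 19.5, 19.6 and 17.0 CPM in DMSO, indisulam and alectinib and fell to 13.7 in the combination (log2 fold change -0.51 ± 0.09, adjusted p = 4.13e-05).

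**Figure D2:**
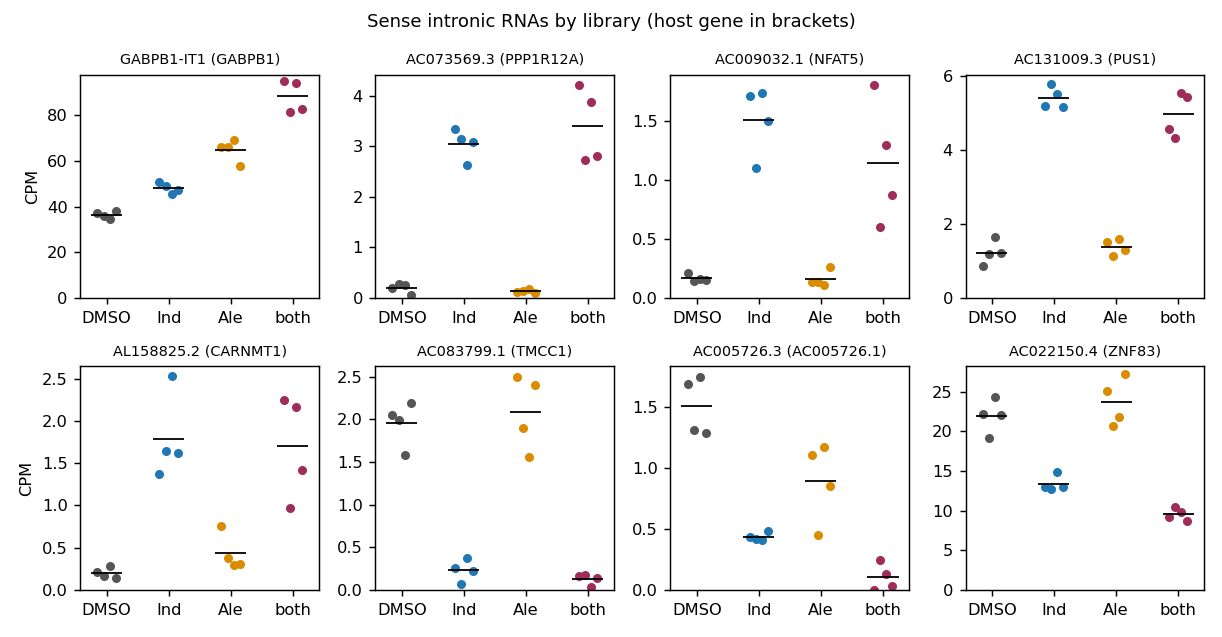
CPM (TMM-scaled, linear y axes from 0) of 8 sense intronic RNAs in each library, with the host gene in brackets. Points are libraries of DMSO, indisulam (Ind), alectinib (Ale) and the combination (both), and the line is the mean (n = 4); GABPB1-IT1 stepped up over the groups, AC073569.3, AC009032.1, AC131009.3 and AL158825.2 were high where indisulam was present, and AC083799.1, AC005726.3 and AC022150.4 were low there.

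Changes were tested in a fit over the 22433 genes that passed a filter on low counts, which 379 of the 423 passed. The other 44 had means of 5.0 to 8.3125 counts. Since an RNA can pass the filter through 1 group in which it is high, the counts below describe those that passed. None of the 379 was at 0 in every library of a group. With indisulam, 122 of 379 (32.2%) were called higher and 30 (7.92%) lower, at an edgeR adjusted p under 0.05, while of all genes tested 23% were called higher and 24.8% lower. The median log2 fold change was 0.39 for the sense intronic RNAs and -0.01 for all genes tested. A change of at least a factor of 2 was seen in 78 of those called higher and 20 of those called lower. Of all 22433 genes tested, 1508 were called higher and 1528 lower with a change of that size. The standard error was larger for this class (median 0.38 on the log2 scale) than over all genes tested (0.145).

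Calls were most frequent among the RNAs with the most counts. Of the 82 with a mean of at least 100 counts, all of which were tested, indisulam raised 46 (56.1%) and lowered 8 (9.76%), with a median log2 fold change of 0.46. Of all 13700 tested genes with such a mean, 27.1% were called higher and 32.6% lower. Of the 149 tested RNAs with means under 20 counts, 26 rose and 7 fell, with a median of 0.23, against 12.4% and 8.07% of all 4002 tested genes with a mean of at least 5 and under 20 counts. The smaller change in the second group was not tested against the first. In all 423, tested or not, the 4 indisulam libraries were all above the 4 DMSO libraries for 107 and all below for 32. The same held for 20.4% and 21.6% of all 23802 genes with a mean count of at least 5.

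The RNAs named for a rise with indisulam were taken from called members with a mean of at least 0.5 CPM over all 16 libraries. An RNA that is low in DMSO can reach that mean through the groups in which it is high. The rule thus favours large rises, and these RNAs are examples only. AC073569.3 had the largest change among them. It lies within a 3255-base intron of PPP1R12A, which encodes the targeting subunit of myosin phosphatase (chr12:79818784-79819465, minus strand). Its CPM was 0.192, 0.270, 0.249 and 0.0696 in DMSO and 3.34, 3.15, 2.63 and 3.09 in indisulam. It was at 0.117, 0.149, 0.179 and 0.109 in alectinib and at 4.21, 2.73, 3.88 and 2.81 in the combination. All libraries that had received indisulam were thus above all that had not. The log2 fold change was 3.96 ± 0.27 in indisulam (adjusted p = 3.01e-11), -0.50 ± 0.35 in alectinib (0.330) and 4.12 ± 0.27 in the combination (4.08e-12). The host mRNA rose far less, by 0.53 ± 0.09 and 0.59 ± 0.09 in the indisulam and combination groups.

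AC131009.3 lies in PUS1, which encodes a pseudouridine synthase of tRNA (chr12:131934642-131934928, plus strand). It was at 0.871, 1.19, 1.66 and 1.22 CPM in DMSO, 5.20, 5.80, 5.52 and 5.17 in indisulam, 1.52, 1.13, 1.61 and 1.30 in alectinib and 4.58, 4.32, 5.56 and 5.43 in the combination. The log2 fold change with indisulam was 2.14 ± 0.17 (adjusted p = 4.66e-10). AC009032.1, in an intron of NFAT5, the transcription factor of the response to osmotic stress, rose from 0.209, 0.144, 0.160 and 0.157 to 1.71, 1.10, 1.73 and 1.50 CPM (3.16 ± 0.35, adjusted p = 8.19e-08). In the combination it was at 1.81, 0.602, 1.30 and 0.873, above every DMSO library.

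The remaining RNAs named for a rise with indisulam were spliced. AL158825.2 in CARNMT1, the carnosine N-methyltransferase gene, was at 0.209, 0.162, 0.285 and 0.139 CPM in DMSO and 1.37, 1.64, 2.53 and 1.63 in indisulam (log2 fold change 3.16 ± 0.36, adjusted p = 1.20e-07). Its host was not called (0.07 ± 0.09, adjusted p = 0.551). AC020978.1 in PRMT7, an arginine methyltransferase gene, rose from a mean of 0.162 CPM ± 0.145 to 1.10 ± 0.104 (2.74 ± 0.40, adjusted p = 4.99e-06), and AC087301.1 in C17orf80 from 0.274 ± 0.124 to 1.83 ± 0.203 (2.73 ± 0.29, adjusted p = 4.77e-08). In all of these the indisulam libraries lay above all DMSO libraries, since the rule for naming required it.

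Large falls with indisulam were fewer. AC083799.1 lies in TMCC1, which encodes a membrane protein of the endoplasmic reticulum (chr3:129847048-129847957, minus strand). Its CPM was 2.06, 2.00, 1.58 and 2.19 in DMSO, 0.258, 0.0721, 0.380 and 0.226 in indisulam, 2.50, 1.90, 1.56 and 2.41 in alectinib and 0.158, 0.177, 0.0333 and 0.140 in the combination. Alectinib libraries overlapped DMSO, and every library with indisulam was below both. The log2 fold change was -3.04 ± 0.32 with indisulam (adjusted p = 5.00e-08) and -3.94 ± 0.36 with both drugs (1.42e-09), while the host rose by 0.34 ± 0.08 and 0.49 ± 0.08.

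AC019080.5 lies in NFE2L2, the gene of the antioxidant-response factor NRF2. It fell from 1.08, 1.29, 1.09 and 0.696 CPM to 0.209, 0.505, 0.297 and 0.242 (log2 fold change -1.73 ± 0.31, adjusted p = 7.17e-05), and its host rose by 0.36 ± 0.08. AC116612.1 in the homeobox gene HMX1 fell from 1.01, 0.827, 0.587 and 1.01 to 0.113, 0.306, 0.198 and 0.161 CPM (-2.14 ± 0.35, adjusted p = 2.54e-05). AC005726.3 fell together with the protein-coding row that spans it, AC005726.1. Its CPM was 1.69, 1.31, 1.74 and 1.29 in DMSO, 0.435, 0.415, 0.413 and 0.483 in indisulam and 0, 0.248, 0.133 and 0.0349 in the combination. The row AC005726.1 fell by 2.05 ± 0.22 on the log2 scale with indisulam and by 3.69 ± 0.25 with both drugs.

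With alectinib alone 35 of 379 (9.23%) were called higher and 3 (0.792%) lower, against 9.99% and 12.3% of all genes tested. The share called higher was thus close to that over all genes, and the share called lower was below it. The median log2 fold change was 0.19, against 0.01 over all genes tested. Of the 82 most deeply counted members 19 were called higher and 1 lower, against 11.1% and 19.3% of all tested genes with a mean of at least 100 counts. Alectinib replicate 1, the deepest library, weighed on these counts, since without it 22 were called higher and 1 lower, with a median of 0.12. In all 423, 46 had every alectinib library above every DMSO library and 8 had every one below, against 12.2% and 13% of all genes with a mean count of at least 5.

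AC079684.1, in PPHLN1, which encodes a component of the HUSH silencing complex, rose from 1.08, 0.647, 0.534 and 1.04 CPM to 2.43, 1.95, 2.20 and 3.09 (log2 fold change 1.55 ± 0.22, adjusted p = 2.11e-05). It was not called with indisulam (-0.22 ± 0.23, adjusted p = 0.476). MAPT-IT1, within the gene of the neuronal microtubule protein tau, was at 0.889, 0.701, 0.730 and 0.992 CPM in DMSO and 2.03, 1.87, 1.77 and 1.75 in alectinib (1.17 ± 0.18, adjusted p = 5.39e-05). MAPT itself was not called with alectinib (-0.10 ± 0.12, adjusted p = 0.577) and fell by 0.87 ± 0.12 with both drugs, where MAPT-IT1 stayed higher than in DMSO (1.07 ± 0.18, adjusted p = 1.84e-05).

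AC092809.2, which has no protein-coding host on its strand, rose with each treatment, from 0.209, 0.306, 0.303 and 0.157 CPM in DMSO to 0.612, 0.487, 0.446 and 0.354 in indisulam, 1.05, 0.513, 0.944 and 0.916 in alectinib and 2.12, 1.17, 1.65 and 1.43 in the combination. Its log2 fold change was 0.96 ± 0.32, 1.82 ± 0.30 and 2.70 ± 0.30 in that order. AC090517.2 in the zinc-finger gene ZNF280D rose with alectinib by 1.02 ± 0.23 (adjusted p = 0.00217), and AC087752.3 in NDUFAF6, a gene for assembly of respiratory complex I, by 1.01 ± 0.25 (0.00549). AL158825.2 was also called with alectinib (1.16 ± 0.38, adjusted p = 0.0298), at 0.755, 0.381, 0.293 and 0.311 CPM, with the deepest library the highest. Without alectinib replicate 1 its change was 0.72 and the call was lost (adjusted p = 0.204), as it was without DMSO replicate 1, 2 or 4.

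The 3 RNAs called lower with alectinib were AL392083.1, AC012181.1 and AC106820.4. AL392083.1 in ADARB2, a brain-enriched member of the RNA-editing ADAR family, went from 1.27, 1.46, 1.33 and 1.32 to 0.925, 0.762, 0.732 and 0.621 CPM (log2 fold change -0.81 ± 0.22, adjusted p = 0.00908). In indisulam it was higher instead (0.52 ± 0.21, adjusted p = 0.0461). AC012181.1 in HERPUD1, a gene of the endoplasmic reticulum stress response, fell by 0.86 ± 0.27 with alectinib and by 0.91 ± 0.27 with indisulam, and its host fell by 0.71 ± 0.07 and 0.86 ± 0.07. Its exons overlap those of another gene, and the alectinib call was lost when any 1 of alectinib replicates 1 and 3 or DMSO replicate 4 was left out. AC106820.4 fell by 0.32 ± 0.10 (adjusted p = 0.0268), a call that was lost with upper-quartile scaling (adjusted p = 0.103) and without any 1 of DMSO replicates 1 and 2 and alectinib replicates 1 and 4.

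**Figure D3:**
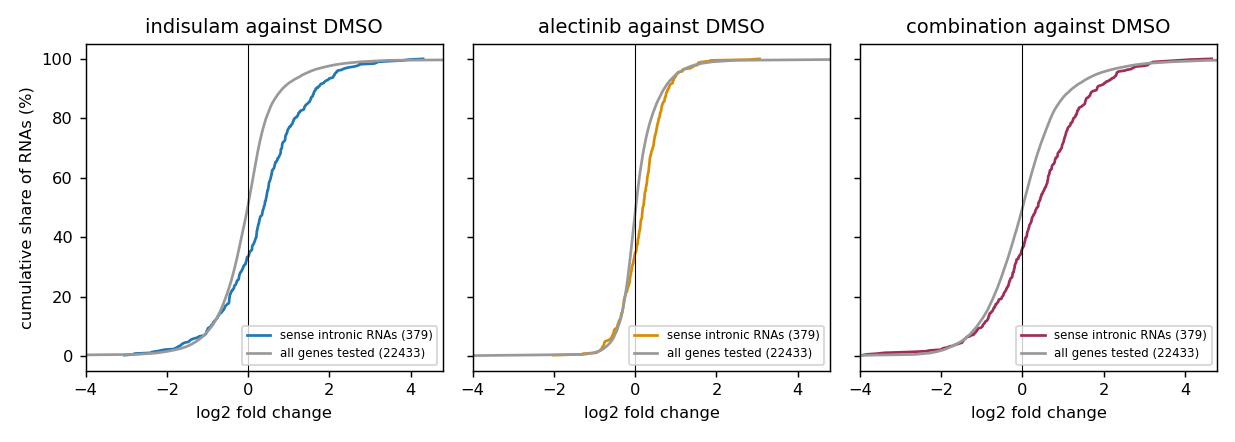
Cumulative share (%, y axis) of the 379 tested sense intronic RNAs (coloured) and of all 22433 genes tested (grey) up to each log2 fold change (x axis) for indisulam, alectinib and the combination against DMSO. The coloured curves lie to the right of the grey ones at the middle, with medians of 0.39, 0.19 and 0.38 against -0.01, 0.01 and 0.01.

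In the combination 129 of 379 (34.0%) were called higher and 43 (11.3%) lower than in DMSO, against 29.7% and 30.6% of all genes tested. The median log2 fold change was 0.38, against 0.01, and 0.25 without combination replicate 1. In all 423, every combination library was above every DMSO library for 99 and below for 39, against 24.5% and 25.9% of all genes with a mean count of at least 5. The 3 comparisons with DMSO share the DMSO libraries, and their counts are therefore not independent of one another.

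Z98884.2 in VAMP3, which encodes a SNARE protein of vesicle fusion, was at 0.558, 0.647, 0.552 and 0.383 CPM in DMSO and 2.72, 1.62, 2.08 and 2.05 in indisulam. It was at 0.872, 0.861, 0.798 and 0.807 in alectinib and 3.90, 2.66, 2.93 and 2.79 in the combination. Its log2 fold change with both drugs was 2.52 ± 0.21 (adjusted p = 2.79e-10). AC006001.2 fell from 1.99, 1.92, 2.03 and 1.62 to 0.650, 0.620, 0.733 and 0.768 CPM with both drugs (-1.44 ± 0.21, adjusted p = 2.63e-06) and was already low with indisulam alone, at 1.06, 0.757, 0.909 and 0.499. Another RNA that the rule named for a fall with both drugs lies on chromosome Y and is not described.

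Against the single drugs, the combination differed from alectinib in more of these RNAs than from indisulam, as it did over all genes tested. Compared with alectinib, 103 (27.2%) were called higher and 51 (13.5%) lower, against 26.5% and 29% of all genes tested. The share called higher was thus close to that over all genes, and the median log2 difference was 0.19. Compared with indisulam, 36 were called higher and 23 lower (18.9% and 20.1% of all genes tested), with a median of -0.01. These medians were 0.06 and -0.16 without combination replicate 1, the library with the highest share of sense intronic counts.

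Few members were called for a departure of the combination from what the single drugs add up to. The interaction was called above 0 for 3 of 379 and below 0 for 8, which is 0.792% and 2.11%, against 6.85% and 6.63% of all genes tested. The standard error of the interaction was larger for this class, with a median of 0.53 on the log2 scale against 0.205 over all genes tested. Few calls therefore do not show that departures were few. Of the 82 members with a mean of at least 100 counts, 0 were called above 0 and 5 (6.10%) below. The median interaction was -0.18 for the members and -0.02 over all genes tested, and the difference was not tested. Among those named, AC068580.1 in CTSD, the gene of the lysosomal protease cathepsin D, was above the sum. Its CPM was 0.366, 0.396, 0.0712 and 0.365 in DMSO, 0.564, 1.10, 0.595 and 0.838 in indisulam, 0.223, 0.232, 0.488 and 0.388 in alectinib and 1.98, 3.63, 1.65 and 3.72 in the combination. Every combination library was above every other library. The interaction was 1.70 ± 0.54 (adjusted p = 0.0378), and CTSD itself had an interaction of 0.29 ± 0.15 that was not called (adjusted p = 0.223).

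AC116612.1 in HMX1 was the other named above the sum (1.48 ± 0.49, adjusted p = 0.0458), with a fall against DMSO that was less deep in the combination, at 0.456, 0.159, 0.416 and 0.454 CPM. The third, AP001178.1, was named after its value was seen (2.31 ± 0.72, adjusted p = 0.0358) and averaged 0.211 CPM. Without DMSO replicate 4 none was called above the sum, and 1 was called without any 1 of DMSO replicates 1 and 2, indisulam replicate 1, alectinib replicate 1 and combination replicate 4. Below the sum, 15 were called without combination replicate 1 and 4 without indisulam replicate 3.

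Below the sum, AJ011931.1 lies in PCBP3, which encodes a poly(rC)-binding protein. It was at 1.86, 1.35, 1.09 and 1.15 CPM in DMSO, 1.76, 1.82, 2.81 and 2.26 in indisulam, 2.56, 2.32, 1.58 and 2.03 in alectinib and 1.42, 1.13, 1.77 and 1.55 in the combination. It was thus higher with each drug alone (0.67 ± 0.21 and 0.64 ± 0.21) but not called with both (0.11 ± 0.22, adjusted p = 0.686), with an interaction of -1.20 ± 0.30 (adjusted p = 0.00964). RPS6KA2-IT1, in the gene of a ribosomal S6 kinase, had the same form, with means of 0.591, 1.02, 1.00 and 0.736 CPM over DMSO, indisulam, alectinib and the combination and an interaction of -1.22 ± 0.36 (adjusted p = 0.0256). AC022211.1 in JPT1, whose exons overlap those of another gene, rose from a mean of 5.93 to 8.87 CPM with indisulam and was at 4.82 with both drugs (interaction -0.73 ± 0.21, adjusted p = 0.0203). AC022150.4 in ZNF83 was also called, at -0.60 ± 0.14 (adjusted p = 0.00538).

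**Figure D4:**
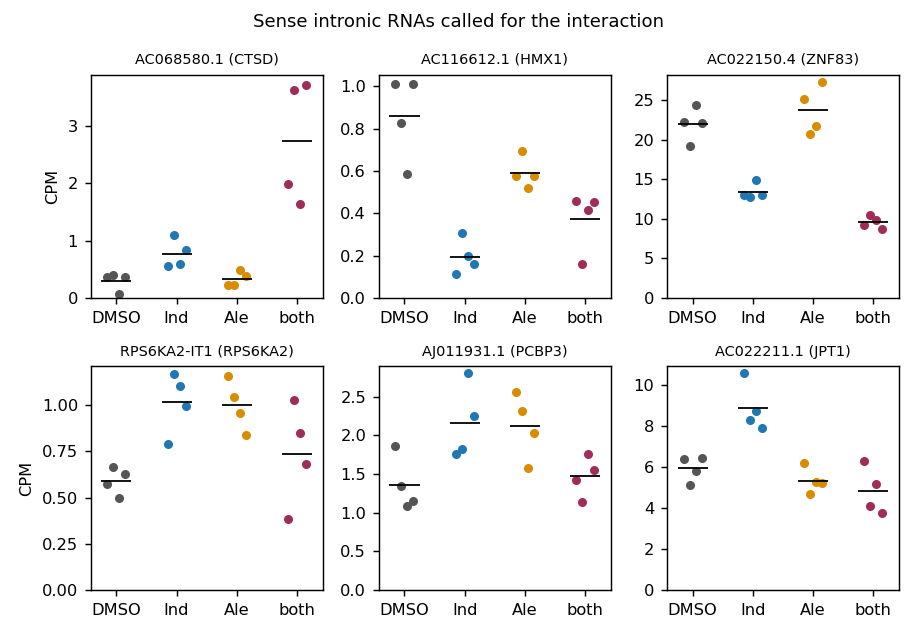
CPM (TMM-scaled, linear y axes from 0) in each library of 6 sense intronic RNAs called for the interaction, with the host gene in brackets and the mean as a line (n = 4). AC068580.1 was highest with both drugs (1.65 to 3.72 CPM), and RPS6KA2-IT1, AJ011931.1 and AC022211.1 were lower with both drugs than with indisulam alone on average.

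For members within the span of a host on the same strand, counts were also read relative to the host's in the same library. Such a ratio needs no scaling between libraries. It could be formed for 347 members, 333 of them wholly in an intron, among 1389 such nested pairs of any biotype in the table. With indisulam the ratio was called higher for 120 of 347 (34.6%) and lower for 27 (7.78%), at a limma adjusted p under 0.05. The shares were 34% and 7.49% over all 1389 pairs, and 33.8% and 7.39% over the 1042 pairs without a member. With indisulam the members' shares were thus close to those of other nested genes. In the combination the ratio was higher for 113 (32.6%) and lower for 31 (8.93%), against 37.9% and 8.5% of all pairs. With alectinib it was higher for 20 and lower for none, against 6.84% and 1.15%. For that count of 0, 8 were lower at an unadjusted p under 0.05, and edgeR with the host count as offset called 0. The interaction of the ratio was below 0 for 2 (AJ011931.1 and AL355102.1, the second named after its value was seen) and above 0 for 0, against 0.648% and 0.216%; at an unadjusted p under 0.05 they numbered 38 and 6, and edgeR with the offset called 2 and 0.

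The fit of single genes gave like shares for other nested genes with indisulam. In it, 348 of the 1042 other genes nested in a protein-coding gene (33.4%) rose with indisulam and 80 (7.68%) fell, with a median log2 fold change of 0.39. In the combination 402 rose and 95 fell (median 0.56), and in alectinib 107 rose and 22 fell (0.21). Among protein-coding genes the median with indisulam was -0.05, among lincRNAs -0.13 and among antisense RNAs 0.09. It was 0.19 among processed pseudogenes, 0.27 among genes of the biotype TEC and 0.53 among snoRNAs, of which 35.1% were called higher. With alectinib lincRNAs and antisense RNAs had medians of 0.26 and 0.25, above the 0.19 of the sense intronic RNAs.

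Hosts of the RNAs that rose changed in both directions. Of the 115 members with a pair that rose with indisulam, the host rose for 36, fell for 39 and was not called for 40. Of the 27 that fell, the host rose for 9, fell for 11 and was not called for 7. Over all 347 pairs the host rose with indisulam in 89, fell in 124 and was not called in 134. In the combination the hosts of the 120 members that rose were higher for 45, lower for 37 and not called for 38. Over all 347 pairs they were higher in 101, lower in 139 and not called in 107, and the difference was not tested. Pearson's r between the log2 changes of member and host, given as a description over 347 pairs that share libraries, was 0.05 with indisulam and 0.19 with both drugs. Over the 72 pairs whose member had a mean of at least 100 counts, r was 0.17 and 0.30.

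**Figure D5:**
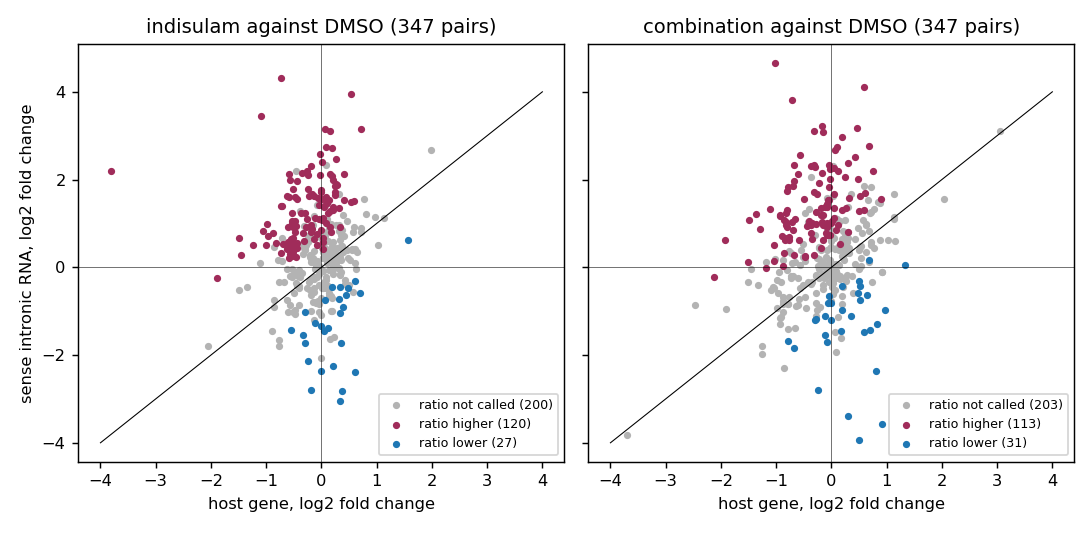
Log2 fold change of each sense intronic RNA (y axis) against that of its host gene (x axis) for 347 pairs, with indisulam (left) and the combination (right) against DMSO. Red and blue points are pairs with a ratio called higher (120 and 113) or lower (27 and 31). Of all 1389 nested pairs of any biotype, 34% and 37.9% were called higher and 7.49% and 8.5% lower. Grey points were not called, and the diagonal marks equal change. The red points spread upwards over hosts that rose and hosts that fell.

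Shifts of the ratio are given here for called members with a mean of at least 0.5 CPM over all 16 libraries. Groups in which an RNA was high count towards that mean. AC073569.3 had 3.26, 4.34, 3.70 and 1.14 counts per 1000 counts of PPP1R12A in DMSO and 39.9, 32.7, 36.7 and 35.5 in the combination (log2 ratio change 3.62 ± 0.32, adjusted p = 9.62e-09). AC083799.1 went the other way, from 62.2, 59.3, 44.5 and 69.7 per 1000 of TMCC1 to 3.91, 3.48, 0.701 and 2.84 (-4.54 ± 0.45, adjusted p = 4.68e-08). DGCR11, in an intron of the membrane receptor gene DGCR2, had 18.2, 11.2, 6.37 and 12.1 per 1000 in DMSO and 114, 76.0, 69.1 and 69.2 in the combination (2.83 ± 0.24, adjusted p = 5.46e-09). The groups did not overlap in any of these.

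For AL158825.2 the count per 1000 of CARNMT1 was 24.8, 17.9, 31.6 and 15.3 in DMSO and 262, 131, 281 and 169 with both drugs (3.16 ± 0.32, adjusted p = 6.94e-08). AC068580.1 rose relative to CTSD by 2.88 ± 0.41 (adjusted p = 6.63e-06). Relative to their hosts, AC008982.2 in HNRNPL, the gene of a splicing regulator, fell by 1.29 ± 0.28 (adjusted p = 0.000771), AC022150.4 in ZNF83 by 1.19 ± 0.13 (1.95e-07) and AP000866.6 in MSANTD2 by 1.17 ± 0.25 (0.000649). AC008982.2 counted 8.31, 4.91, 4.85 and 4.66 per 1000 of HNRNPL in DMSO and 2.31, 2.92, 2.78 and 1.35 with both drugs. The exons of AP000866.6 overlap those of another gene.

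Members of 1 host could move alike or apart. The 36 hosts with more than 1 member held 80, and CCDC92 had 6. All 6 had a positive log2 fold change with indisulam, from 0.25 to 1.01, and 3 of them were called. In SMIM7, AC024075.1 and AC024075.2 rose by 0.82 ± 0.12 and 0.89 ± 0.11, and in BIRC6, a large gene of apoptosis inhibition, AL133243.2 and AL133243.3 rose by 1.28 ± 0.18 and 2.12 ± 0.17. AL133243.3 stood at 1.29, 1.15, 1.42 and 1.15 CPM in DMSO and 5.33, 5.10, 5.68 and 5.75 in indisulam. Within BUB1B-PAK6, by contrast, AC020658.3 rose by 1.66 ± 0.33 (adjusted p = 0.000259) and AC020658.4 fell by 0.91 ± 0.29 (0.0130). In KLC1, a kinesin light chain gene, AL049840.4 fell by 0.45 ± 0.11 and AL049840.3 by 1.04 ± 0.37, while AL049840.5 rose by 0.63 ± 0.26 (adjusted p = 0.0497). These hosts were chosen after their values were seen, to show both patterns.

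RNAs with and without a poly(A) signal near the end, and with and without introns of their own, were among those that rose. Among tested RNAs with AATAAA in the last 50 bases, 44 of 147 rose with indisulam and 10 fell, with a median log2 fold change of 0.25. Without it 78 of 232 rose and 20 fell, with a median of 0.42. Single-exon RNAs rose in 73 of 218 and spliced ones in 49 of 161. Those with a run of 10 A rose in 20 of 54 and fell in 2, and those without rose in 102 of 325 and fell in 28. These differences were not tested.

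The RNAs lay at a wide range of positions in their introns. For the 111 that lay in a host intron and rose with indisulam, the median distance to the upstream host exon was 1529 bases and the median intron length 9504 bases. For the 203 that were not called these were 2578 and 12137 bases. The quartiles overlapped (760 to 5072 against 856.5 to 7730.5 bases for the distance), and no test was made. Called RNAs also had more counts, with a median of 55.75 against 19.6875.

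Genes that act on intronic RNA were called in both directions with indisulam and with both drugs, as genes in general were. Of 28 genes of nuclear RNA decay, 6 were called higher and 9 lower with indisulam, none higher and 4 lower with alectinib, and 9 higher and 13 lower in the combination. Of all genes tested, 23% were higher and 24.8% lower with indisulam, 9.99% and 12.3% with alectinib, and 29.7% and 30.6% with both drugs. EXOSC10, the nuclear exosome's exonuclease, fell in the combination by 1.42 ± 0.07 (adjusted p = 8.75e-14), from 50.2 CPM to 18.8. NCBP1, a subunit of the cap-binding complex, fell by 1.06 ± 0.07, ZCCHC7, a subunit of the TRAMP polyadenylation complex, by 1.01 ± 0.09, and TENT4B, its poly(A) polymerase, by 0.67 ± 0.07. These 4 were named by their p-values, and among the 9 called higher was NCBP2 (0.46 ± 0.05). Of 8 genes for U1 snRNP proteins, LUC7-like factors and TIA proteins, 4 rose and 2 fell in the combination. LUC7L rose by 0.69 ± 0.06, LUC7L2 by 0.62 ± 0.06, SNRPC by 0.61 ± 0.08 and SNRNP70 by 0.40 ± 0.09, while 0 of the 8 were called by edgeR with alectinib, where 1 had an unadjusted p under 0.05. The 2 that fell in the combination were LUC7L3 (-0.35 ± 0.09, from 920 CPM in DMSO to 719) and TIA1 (-0.21 ± 0.07). Whether these mRNA changes bear on the intronic RNAs was not tested.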

How the data were processed

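The deposited file holds the authors' raw counts, 1 row per gene and 1 column for each of 16 libraries. The build GRCh38 and, in alphabetical order, the programs FastQC 0.11.9, featureCounts 2.0.1, HISAT2 2.2.1 and Trimmomatic 0.39 are named in the submitters' processing notes. How strand and multiply mapped reads were treated in counting is unknown here, and RNA was selected by poly(A), per the labels' protocols. Positions and exonic lengths of all 58735 rows equalled GENCODE 29, which gave exons, hosts and sequences. Where several protein-coding genes spanned a member, the host was the one with the most counts.

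Groups came from the sample titles. After filterByExpr, 22433 genes were scaled with TMM. The edgeR 4.0.16 quasi-likelihood test (R 4.3.3) was fitted over all 16 libraries with 1 mean per group, leaving 12 residual degrees of freedom. P-values were two-sided and Benjamini-Hochberg adjusted over all genes tested, and errors after log2 values are standard errors. The prior count was 0.125. Ratios to hosts, log2 of (member + 0.5)/(host + 0.5), were tested with limma 3.58.1 over all 1389 nested pairs. DESeq2 1.42.0, other scalings, filters, pseudocounts, a replicate block and left-out libraries were alternatives. The tests were tried on simulated counts.

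Named members were the 5 with most counts and, among called members with a mean of at least 0.5 CPM, those with the largest changes: 6 higher and 4 lower per treatment without overlap with DMSO, 3 and 3 for the interaction, 4 and 4 for the ratio in the combination. From the 2 gene lists the first 4 called by p in the combination were named. NCBP2, LUC7L3 and TIA1 were added after their values were seen. The members, lists and rules were chosen with earlier results of these data known. Some items are not reported here.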

Additional observations from a re-analysis of the deposited data

Results flagged for a closer look

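In 6 named members the change with indisulam differed according to whether alectinib was present, by the edgeR test of the interaction at an adjusted p under 0.05. AC068580.1 rose by 1.36 on the log2 scale without alectinib and by 3.06 with it, a difference of 1.70. AC116612.1 changed by -2.14 without and -0.66 with alectinib, a difference of 1.48. AC022150.4 fell more deeply with alectinib present (-1.31 against -0.71, a difference of -0.60). AC022211.1, AJ011931.1 and RPS6KA2-IT1 rose with indisulam alone, by 0.58, 0.67 and 0.78, and stood at -0.15, -0.53 and -0.45 when alectinib was present, differences of -0.73, -1.20 and -1.22.

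A single library stood apart from the other 3 of its group in 5 of 128 groups checked, and chance alone gives about 1 in 20. AC022150.4 was at 14.9 CPM in indisulam replicate 3 against 12.7 to 13.0 in the others. AC008982.2 was at 1.99 in DMSO replicate 1 against 1.19 to 1.26. AC068580.1 was at 0.0712 in DMSO replicate 3 against 0.365 to 0.396. AC009032.1 was at 0.264 in alectinib replicate 4 against 0.114 to 0.138. AC116612.1 was at 0.159 in combination replicate 2 against 0.416 to 0.456.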

How the results depend on the processing

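Under the alternatives run, no called change of a named member turned its direction, while medians near 0 changed sign. Directions of the other members were not followed. The members' median for the combination against indisulam (-0.01) was 0.03 with upper-quartile scaling, 0.02 with a filter at a mean of 20 counts, and above 0 under 6 left-out libraries. The median of all genes tested changed sign under some alternatives in every comparison but alectinib against DMSO; with indisulam it was -0.01, and 0.07 with upper-quartile scaling. A filter at a mean of 20 counts moved the members' median log2 change in the combination from 0.38 to 0.53, since it leaves 230 RNAs. Upper-quartile scaling moved the median of all genes in the combination to 0.13, and the members' median to 0.51. With the replicate number as a block, 1 member was called above 0 for the interaction in place of 3, and no other count moved by over 1.5 times. The deviations of same-numbered libraries correlated over 0.1 in 5 of 24 pairs (median 0.05), and those of other numbers in 2 of 72 (median -0.01). The main fit did not take the numbers to pair the samples. These values do not exclude a partial pairing, for which the replicate block was the alternative.

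Leaving out each library in turn, members called with alectinib ranged from 22 to 40 higher and 1 to 4 lower, and for the interaction from 0 to 3 above 0 and 4 (without indisulam replicate 3) to 15 (without combination replicate 1) below 0. The ratio to the host was called higher with alectinib for 12 to 22, lower for 0 to 1, and below 0 for the interaction for 0 to 3. The members' median for the combination against indisulam ranged from -0.16 to 0.0701. Without both alectinib replicate 1 and combination replicate 1, chosen after seeing the data, that median was -0.16 and 1 member was above 0 for the interaction. The cause was not tested. Among named calls, AC116612.1 for the interaction was lost under most left-out libraries (adjusted p up to 0.105), AC068580.1 (up to 0.0973), RPS6KA2-IT1 (0.0762) and AC022211.1 (0.0517) under some. Low counts limit the class: 149 tested RNAs had means under 20.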
